A study of Homo sapiens with 12 samples.

Results

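The miRNAs described here are the 5 mature products of the paired miR-23/27/24 clusters, hsa-miR-23a, hsa-miR-23b, hsa-miR-27a, hsa-miR-27b and hsa-miR-24, chosen by name from the 851 human miRNA names in the authors' value table. All 5 were detected on all 12 arrays, as were 100 miRNAs in all, and all 5 belonged to the 219 miRNAs tested, which were those that 1 or more groups had as detected in both of their arrays. The arrays profiled Saos-2, an established human osteosarcoma cell line, and Sa/CD99, Saos-2 cells stably transfected with CD99 by calcium phosphate and selected in neomycin. Sa/CD99 was represented by clones 22 and 36, each 1 clone, and the Saos-2 cells were the untransfected parental line, so that CD99, transfection and selection cannot be told apart. RNA was taken at day 0, before osteogenic medium with β-glycerophosphate and ascorbic acid, and after 7 and 14 days in it. The medium also held less serum than the growth medium, so time, medium and serum cannot be told apart either. Each of the 6 groups had 2 one-colour Agilent arrays, clones 22 and 36 for Sa/CD99 and replicates 1 and 2 for Saos-2, and this number limits the precision.

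The deposited records disagree about which array is which sample, and the values below follow the column labels of the authors' normalized log2 table. Each of its 12 columns had the same detected and undetected miRNAs as exactly 1 scanner array, for 847 of 847 shared names, and in 12 of 12 cases that array was filed under another sample. By the table's labels, both arrays of a group lay at the same position in the 2 columns of a slide in 6 of 6 groups, and by the filed labels in 0 of 6. That layout was noticed after the files had been seen, and which record is right was not tested. All array names and directions below follow the table's labels; the filed values are given for the tested differences they turn. Of the mesenchymal marker miRNAs, 5 to 6 of 7 were detected on every array, and 0 of 6 blood and 0 of 6 epithelial markers were detected on any. Of 4 muscle markers hsa-miR-133b was detected on 3 arrays, with a signal of at most 10.2, of 2 neural markers hsa-miR-9 on 1 array, with a signal of 5.09, and the 1 liver marker on 0; their part in the results was not tested.

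Each cluster encodes a miR-23, a miR-27 and a miR-24 hairpin in close succession, so that the 3 can be cut from 1 primary transcript. A mature miRNA guides Argonaute to messenger RNAs, mainly through the bases of its seed. In osteoblasts the cluster of miR-23a, miR-27a and miR-24 is known to be repressed by RUNX2, the master transcription factor of bone formation.

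The sequences are shown because they set out which members can be told apart by target recognition and which by only a late base. They are the mature sequences of the RefSeq annotation of GRCh38.p14, which matched 5 of the 5 names, written 5′ to 3′ with the seed, bases 2 to 8, in capitals.
hsa-miR-23a: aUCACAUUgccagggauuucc
hsa-miR-23b: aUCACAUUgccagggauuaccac
hsa-miR-27a: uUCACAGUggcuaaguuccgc
hsa-miR-27b: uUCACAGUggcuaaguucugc
hsa-miR-24: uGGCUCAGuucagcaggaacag

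The 5 miRNAs thus fall into 3 seed groups, and 0 other miRNAs on the array had any of these seeds. Counted from 1 at the 5′ end, the sequences of hsa-miR-23a and hsa-miR-23b differ by U19A and in length, 21 against 23 bases, and those of hsa-miR-27a and hsa-miR-27b by C19U. Whether the probes of such a pair also bind the other member was not tested. The hairpins of hsa-miR-23a, hsa-miR-27a and 1 copy of hsa-miR-24 span 373 bases of chromosome 19 on the minus strand, and those of hsa-miR-23b, hsa-miR-27b and the other copy span 881 bases of chromosome 9 on the plus strand. The mature hsa-miR-24 is identical from both, so its value does not say which cluster made it.

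hsa-miR-23a, known to repress glutaminase, was lower on every later day in Sa/CD99 by the table's labels. Its log2 value in clones 22 and 36 was 7.83 and 7.93 at day 0, 7.09 and 6.80 at day 7, and 5.86 and 5.70 at day 14. In Saos-2 replicates 1 and 2 it was 8.09 and 7.72 at day 0, 7.09 and 6.22 at day 7, and 6.52 and 6.15 at day 14. The 3 days did not overlap in Sa/CD99, whereas in Saos-2 day 0 lay above both later days and days 7 and 14 overlapped.

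hsa-miR-23b, with the same seed, followed the same course by these labels. In clones 22 and 36 its log2 value was 8.55 and 8.35 at day 0, 7.83 and 7.56 at day 7, and 6.27 and 6.59 at day 14. In Saos-2 replicates 1 and 2 it was 8.46 and 7.99, then 7.93 and 6.52, then 6.97 and 6.59. The Saos-2 arrays of day 7 lay furthest apart, and replicate 2 of that day was below both arrays of day 14.

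hsa-miR-27a, known to hold back adipocyte differentiation through PPARG, spanned the widest range of the 5 over the 12 columns. Its log2 value in clones 22 and 36 was 3.16 and 3.55 at day 0, 1.49 and 0.99 at day 7, and -0.33 and -1.0 at day 14. In Saos-2 it was 3.65 in replicate 1 and 5.46 in replicate 2 at day 0, 1.11 and 4.31 at day 7, and 0.37 and 4.35 at day 14. Replicate 1 of Saos-2 lay close to the clones, and replicate 2 lay above every other array on all 3 days. Days 0, 7 and 14 did not overlap in Sa/CD99 and overlapped in Saos-2.

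hsa-miR-27b had a narrower range. In clones 22 and 36 its log2 value was 5.09 and 5.12 at day 0, 5.09 and 4.97 at day 7, and 3.83 and 4.31 at day 14. In Saos-2 replicates 1 and 2 it was 5.16 and 6.15, then 4.55 and 5.46, then 4.43 and 5.37. Replicate 2 was again the higher of the Saos-2 arrays on each day, and only day 14 in Sa/CD99 was below the days before it.

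hsa-miR-24, known to repress E2F2 and MYC, was lower at day 14 than at day 0 in both cell types by the table's labels, and as filed 0.69 log2 units higher in both. Its log2 value in clones 22 and 36 was 7.42 and 7.83 at day 0, 6.97 and 6.85 at day 7, and 6.15 and 6.27 at day 14. In Saos-2 replicates 1 and 2 it was 7.66 and 8.46, then 7.14 and 7.20, then 6.47 and 6.97. The 3 days did not overlap in either cell type. The share of all miRNAs whose days did not overlap is not given here, so such a gap is not shown to be particular to a member. By the table's labels, 89 of the 100 miRNAs detected on all columns were lower at day 14 than at day 0 in Sa/CD99. In Saos-2 87 of them were. The arrays measured bulk RNA, in which fewer cells of a type and less of a miRNA per cell cannot be told apart.

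**Figure D1:**
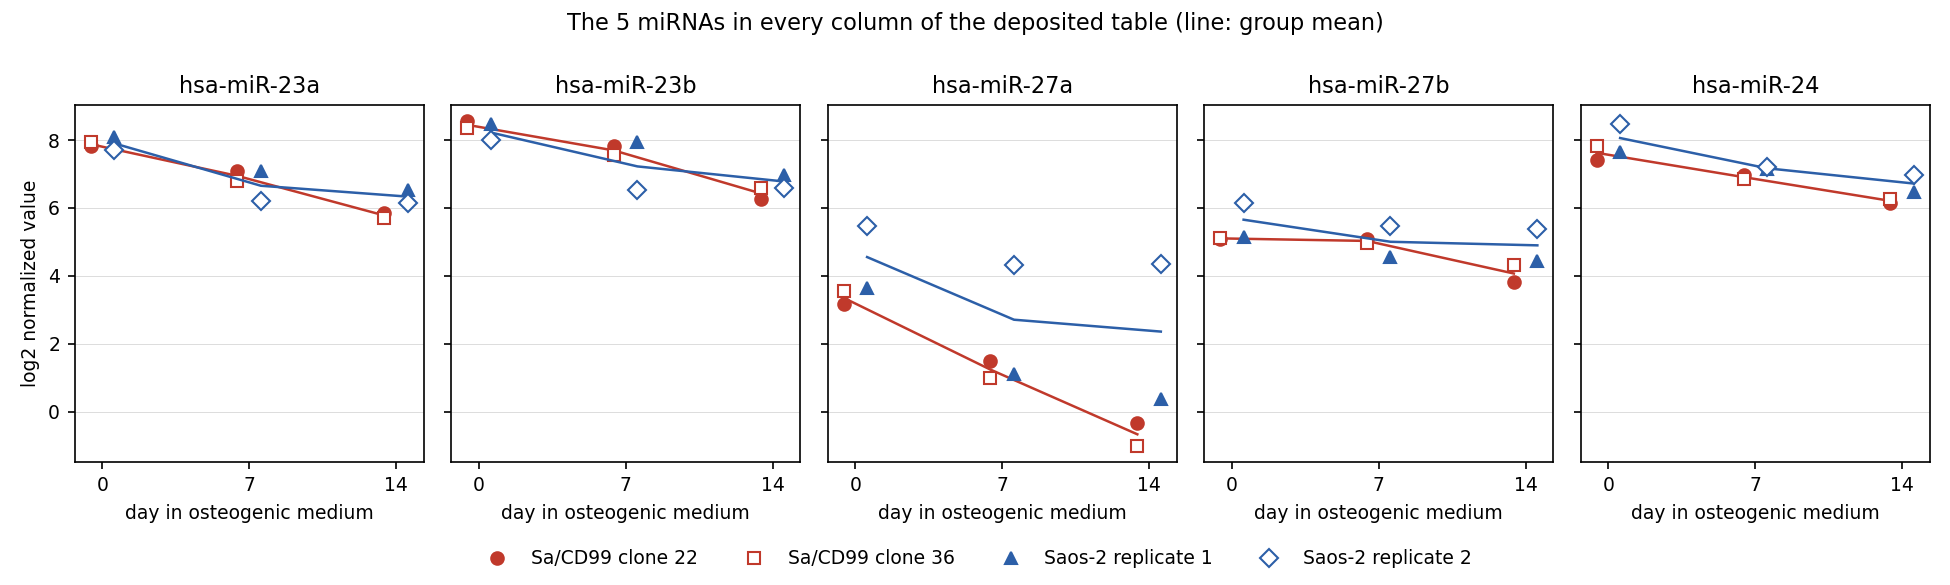
Log2 normalized value of each of the 5 miRNAs (y axis) in all 12 columns of the authors' table by day in osteogenic medium (x axis), with Sa/CD99 in red, Saos-2 in blue and lines through the group means. All 5 group means are lower at day 14 than at day 0 in both cell types on this scale; without normalization those of hsa-miR-27a and hsa-miR-27b, and of hsa-miR-24 in Sa/CD99, are not, and with the arrays as filed only hsa-miR-23b in Sa/CD99 is lower. Saos-2 replicate 2 stands apart for hsa-miR-27a, at 4.31 against 1.11 at day 7.

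From day 0 to day 14 in Sa/CD99, limma called 4 of the 5 members at an adjusted p of at most 0.05, all lower, where 74.4% of all tested miRNAs were called and 37.4% were called lower. Of the miRNAs detected on all columns, as all members were, 79.0% were called, 68 of 100 lower, so the members' share is near that of their like. hsa-miR-23a fell by 2.10 log2 units (standard error 0.38, adjusted p = 0.00178), from 7.88 ± 0.07 to 5.78 ± 0.11 (SD, n = 2). hsa-miR-23b fell by 2.02 (standard error 0.48, adjusted p = 0.00682), from 8.45 ± 0.14 to 6.43 ± 0.22, and hsa-miR-24 fell by 1.41 (standard error 0.37, adjusted p = 0.00989), from 7.62 ± 0.29 to 6.21 ± 0.08. hsa-miR-27a had the largest of the 5 differences, -4.03 (standard error 1.41, adjusted p = 0.0305), from 3.36 ± 0.27 to -0.67 ± 0.47. hsa-miR-27b differed by -1.04 (standard error 0.51, adjusted p = 0.0926) and was not called. The call of hsa-miR-27a was lost without any 1 of the 4 Sa/CD99 arrays of days 0 and 14, at adjusted p = 0.0798 and 0.101 without clones 22 and 36 of day 0 and 0.0819 and 0.118 without those of day 14, though the difference stayed between -4.36 and -3.69. Without clone 36 of day 0 hsa-miR-24 lost its call too (adjusted p = 0.0636), which left 2 members called. Computed from the scanner arrays under the table's labels, with background correction and quantile normalization as in rma, the difference of hsa-miR-27a was -0.55 (adjusted p = 0.624) and the other 3 stayed called. Its call was lost under each of the 8 settings computed from the scanner arrays with these labels. Scaling to the 75th percentile of all probes left 2 called, hsa-miR-23a and hsa-miR-23b, and a normexp background correction left 0, where it called 40 of all 219 miRNAs. With the scanner arrays as filed 0 members were called, as were 0 of all 213 miRNAs tested, and 4 of these differences turned positive, with hsa-miR-23a at 0.32 and hsa-miR-27a at 1.63. Over all alternatives the adjusted p ranged from 0.000824 to 0.973 for hsa-miR-27a and from 0.000816 to 1.0 for hsa-miR-24.

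From day 0 to day 14 in Saos-2, limma called 3 of the 5 members, all lower, where 55.7% of all tested miRNAs were called and 26.9% were called lower. Of those detected on all columns 56.0% were called, 45 of 100 lower. hsa-miR-23a fell by 1.57 (standard error 0.38, adjusted p = 0.0114), from 7.91 ± 0.26 to 6.34 ± 0.26 (SD, n = 2). hsa-miR-24 fell by 1.33 (standard error 0.37, adjusted p = 0.0189), from 8.06 ± 0.56 to 6.72 ± 0.36, and hsa-miR-23b fell by 1.44 (standard error 0.48, adjusted p = 0.0347), from 8.22 ± 0.33 to 6.78 ± 0.27. The differences of hsa-miR-27a, -2.19 (standard error 1.41, adjusted p = 0.214), and of hsa-miR-27b, -0.76 (standard error 0.51, adjusted p = 0.227), were not called. With 1 array left out the first ranged from -4.18 without replicate 2 of day 14 to -0.21 without replicate 1 of day 14, and the second from -1.25 without replicate 1 of day 0 to -0.26 without replicate 2 of day 0. The call of hsa-miR-23b was lost without any 1 of 6 arrays: both Sa/CD99 arrays of day 0 (adjusted p = 0.0515 for clone 22 and 0.0521 for clone 36), Saos-2 replicates 1 and 2 of day 0 (0.130 and 0.0648) and of day 14 (0.0798 and 0.108). That of hsa-miR-24 was lost without replicate 2 of day 0 (adjusted p = 0.10) or replicate 1 of day 14 (0.0882), and that of hsa-miR-23a without replicate 1 of day 0 (0.0524). The count was thus 1 without replicate 1 or 2 of day 0 or replicate 1 of day 14, and without replicate 2 of day 14 hsa-miR-27a was called at -4.18 (adjusted p = 0.0336). Scaling to the 75th percentile of all probes left hsa-miR-23a alone, over the detected probes it left hsa-miR-23a and hsa-miR-24, and the normexp correction left 0, where it called 2 of all 219 miRNAs. With the arrays as filed 0 of all 213 miRNAs tested were called, and all 5 differences were positive, with hsa-miR-23a at 0.62. Over all alternatives the adjusted p ranged from 0.00134 to 0.937 for hsa-miR-23a, 0.00492 to 0.937 for hsa-miR-23b, 0.00667 to 1.0 for hsa-miR-27a and 0.00121 to 0.920 for hsa-miR-24.

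Fewer members passed over 7 days than over 14. From day 0 to day 7 limma called 1 member in Saos-2, where 36.5% of all tested miRNAs were called: hsa-miR-23a, which fell by 1.25 (standard error 0.38, adjusted p = 0.0340). This call was lost without any 1 of 7 arrays, at adjusted p = 0.0509 and 0.0530 without clones 22 and 36 of day 0, 0.0510 without clone 22 of day 7, 0.0520 without clone 36 of day 14, 0.121 and 0.0627 without Saos-2 replicates 1 and 2 of day 0, and 0.113 without replicate 2 of day 7. Without replicate 1 of day 7 the count was 2, with hsa-miR-23b. It was 3 from the scanner arrays under the table's labels, where 47.0% of all tested miRNAs were called, and 0 with centred columns (31.5% called), without normalization (25.6%), with only the arrays of the 2 groups (26.0%), with normexp (0.913%), and as filed, where 0 of all 213 miRNAs were called and hsa-miR-23a was at 0.40; over all alternatives its adjusted p ranged from 0.00428 to 0.993. In Sa/CD99 limma called 0 members over the same 7 days, where 32.0% were called, and 1 member had an unadjusted p under 0.05; the count was 1, hsa-miR-23a, without Saos-2 replicate 1 or replicate 2 of day 7.

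From day 7 to day 14 limma called 0 members in Sa/CD99, where 19.6% of all tested miRNAs were called, and 2 had an unadjusted p under 0.05. The difference of hsa-miR-23a was -1.17 (standard error 0.38, adjusted p = 0.0645), and as filed 0.79. With only the arrays of the groups compared 3 members were called, where 30.6% of all tested miRNAs were called. The count stayed 0 with centred columns, where 27.9% were called. Counts without the 3 Saos-2 replicate 1 or replicate 2 arrays are given with the processing. With arrays of the same clone or replicate number paired as a block, hsa-miR-23a was the 1 member called (adjusted p = 0.0452, 0.00921 to 0.822 over all alternatives), and without Saos-2 replicate 1 or replicate 2 of day 7 the count was 2, hsa-miR-23a and hsa-miR-23b. In Saos-2 limma called 0 members between these days, where 0.0% of all tested miRNAs were called, and 0 members had an unadjusted p under 0.05.

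Much of this fall was shared with other miRNAs and depended on the scale. In the authors' table the median difference from day 0 to day 14 of the 100 miRNAs detected on all columns was -1.57 in Sa/CD99 and -1.15 in Saos-2, and over the 219 tested it was -0.64 and -0.47. With the columns centred on the median of the 100, these medians over the tested miRNAs became 0.49 and 0.26. Relative to the 100, hsa-miR-23a differed by -0.53 and hsa-miR-23b by -0.45 in Sa/CD99. In 36 of the 100, itself included, the Sa/CD99 difference was as low as that of hsa-miR-23a or lower, and in 13, itself included, as low as that of hsa-miR-27a. Centred this way, limma called 0 members in either cell type over 14 days, where 118 of all 219 miRNAs were called in Sa/CD99 and 97 in Saos-2, and hsa-miR-27b turned to 0.08 in Sa/CD99. In that fit hsa-miR-23a was at -0.98 (limma adjusted p = 0.0565), hsa-miR-23b at -0.9 and hsa-miR-27a at -2.9 in Sa/CD99. The median difference of the 100 was then -0.45 there. Of the called miRNAs in Sa/CD99, 49.7% were higher in the authors' table and 72.9% after centring.

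By the table's labels the total signal of the arrays differed between the days. The 4 arrays of day 0 had a summed gene signal of 8594 to 11371 and 133 to 158 detected miRNAs, against 25232 to 62236 and 158 to 229 on the 8 later arrays. On the later arrays 48.4 to 66.8% of the sum came from hsa-miR-923, a withdrawn entry that is a fragment of the large ribosomal RNA, against 2.12 to 6.50% at day 0. By the filed labels the days overlapped, with sums of 9132 to 57087 on the 4 arrays of day 0 and 8594 to 62236 on the others. The part of this shift in the members' fall was not tested.

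The signal of the members before normalization, a setting chosen after seeing the data, shows what the arrays held. The total gene signal of hsa-miR-23a in clones 22 and 36 was 137 and 130 at day 0, 151 and 128 at day 7, and 76.2 and 87.2 at day 14. In Saos-2 replicates 1 and 2 it was 157 and 177, then 108 and 132, then 93.5 and 166. In Sa/CD99 the arrays of day 14 were the lowest, and in Saos-2 replicate 2 of day 14 overlapped with day 0. The signal of hsa-miR-27a was 3.49 and 5.05 at day 0 and 4.50 and 5.27 at day 14 in clones 22 and 36, so that its normalized difference of -4.03 stands beside a difference of 0.21 without normalization; on the Sa/CD99 arrays 4 to 7 of its 16 spots were well above background. Without normalization limma called 0 members over 14 days in either cell type, where 102 of all 219 miRNAs were called in Sa/CD99 and 80 in Saos-2, and the differences of hsa-miR-27b, 0.57 and 0.39, of hsa-miR-27a, 0.21 and 0.03 in Sa/CD99 and Saos-2, and of hsa-miR-24 in Sa/CD99, 0.02, were positive. Those of hsa-miR-23a, -0.71 and -0.42, and of hsa-miR-23b, -0.57 and -0.24, were not, against a median of 0.15 and 0.14 over the miRNAs detected on all arrays.

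**Figure D2:**
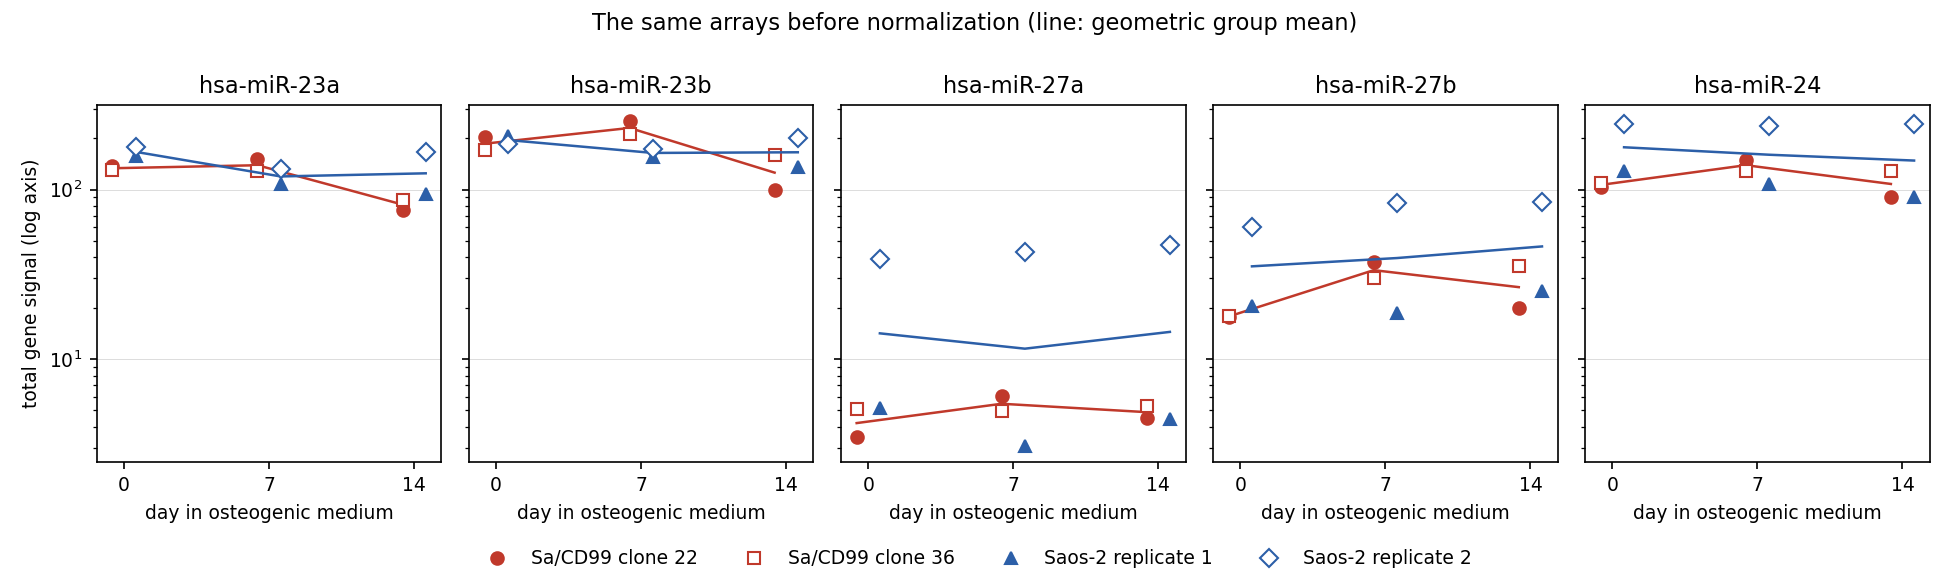
Total gene signal before normalization (y axis, log scale) of the 5 miRNAs by day in osteogenic medium (x axis), with lines through the geometric group means. hsa-miR-27a lies between 3.09 and 6.03 on the Sa/CD99 arrays and Saos-2 replicate 1, and between 39.2 and 47.3 on Saos-2 replicate 2.

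Under the scalings that keep the labels of the table, the miR-23 pair lay below the median of the other miRNAs. Over 10 settings of background, normalization and summary, hsa-miR-23a and hsa-miR-23b were below 0 and below the median of the miRNAs detected on all columns in 10 of 10, in both cell types, though by only 0.01 to 0.02 log2 units under the normexp setting that brought all differences near 0. hsa-miR-27b was below that median by 0.01 or more in 0 of 10. hsa-miR-24 was below it in 7 of 10 in Sa/CD99 and 10 of 10 in Saos-2, and hsa-miR-27a in 3 of 10 and 7 of 10. The 10 are not separate checks, since a setting that only rescales whole arrays leaves such a position nearly as it was: for hsa-miR-23a in Sa/CD99 it was -0.53 in the table and with centred columns, and -0.86 and -0.84 under the 2 percentile scalings. As filed, most of these differences were positive, and their place beside the median was not analysed.

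**Figure D3:**
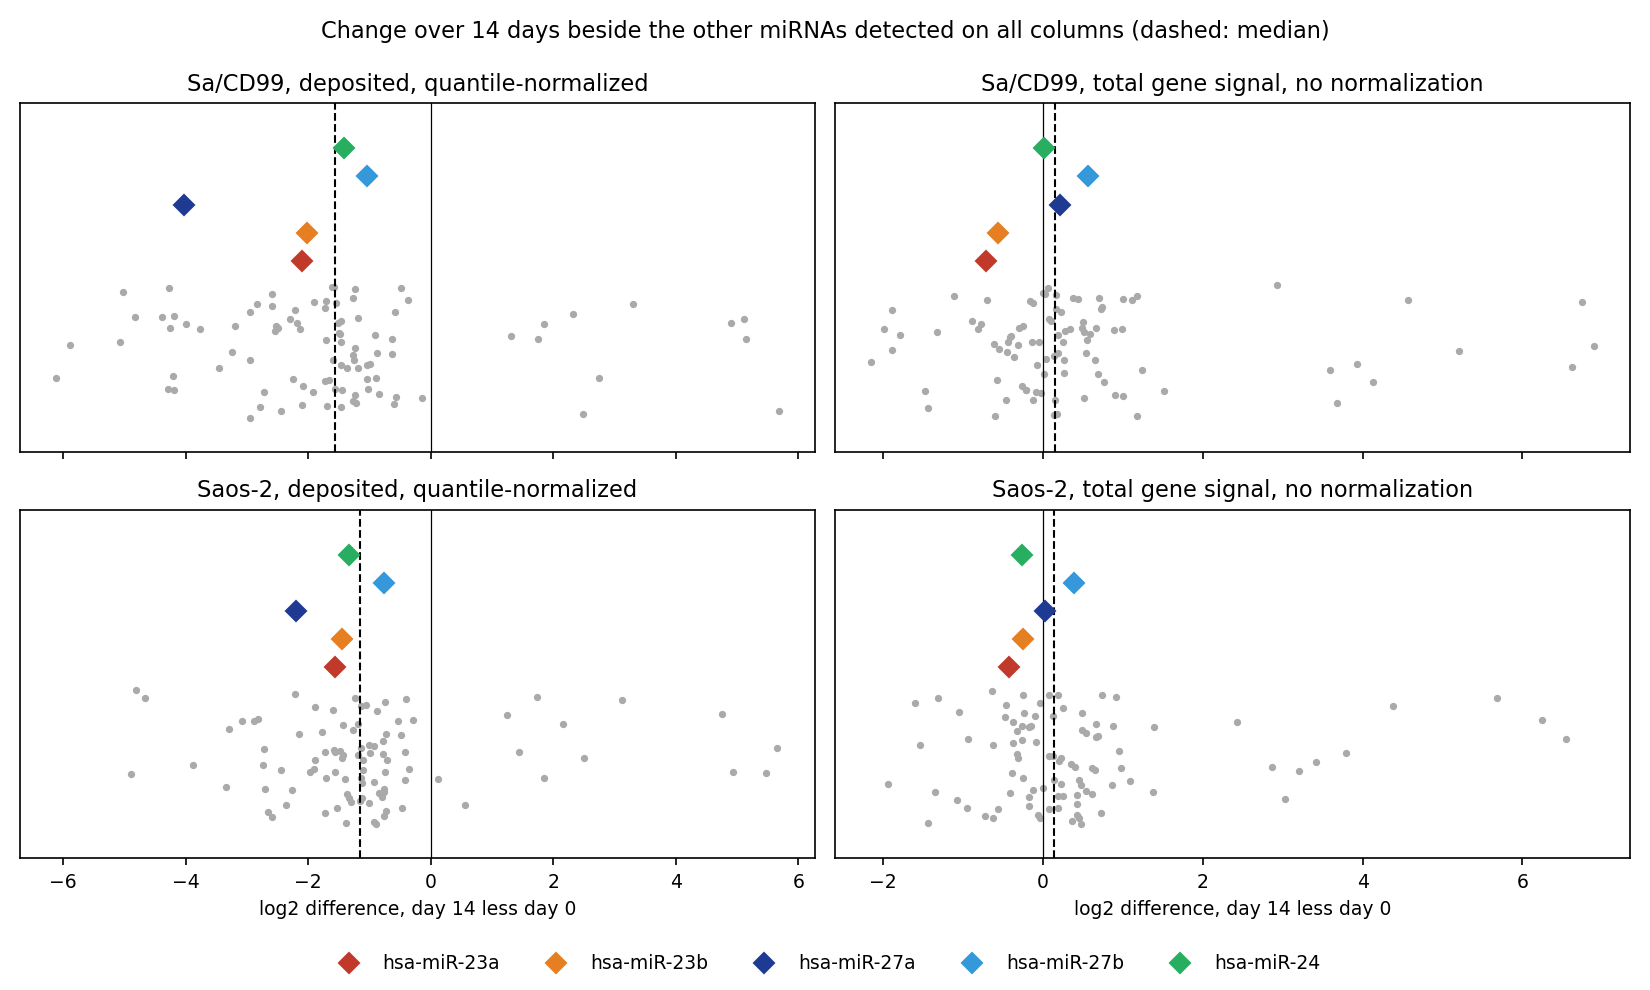
Log2 difference of day 14 less day 0 (x axis) for the 5 miRNAs, as coloured diamonds set out by member, and for the other miRNAs detected on all columns, as grey points spread along the y axis for visibility; the dashed line is the median. hsa-miR-23a and hsa-miR-23b lie left of it in all 4 panels and hsa-miR-27b right of it, and without normalization the median moves from -1.57 to 0.15 in Sa/CD99. As filed, hsa-miR-23a is above 0 in both cell types.

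Between the cell types limma called 0 members. The study's methods call a miRNA from a fold of 1.4 up where its p is 0.01 or less, read here as the unadjusted p. By that rule 0 members were called at day 0, where 2.74% of all tested miRNAs were called by it and by the adjusted p alike; at day 7, where 3.20% were called, 1.37% by the adjusted p; and at day 14, where 9.13% were called, 2.74% by the adjusted p. An unadjusted p under 0.05 was reached by 0 members on each day. Over the 3 days together 0 members were called at an adjusted p of 0.05, where 2.74% were, and 1 had an unadjusted p under 0.05. The interaction of cell type and day called 0 members, where 1.83% were called, and 0 had an unadjusted p under 0.05.

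Averaged over days, the miR-23 pair had differences between the cell types below their standard errors, and hsa-miR-27b and hsa-miR-24 had differences of 1 to 2 standard errors. Over all days, Sa/CD99 less Saos-2 was -0.10 for hsa-miR-23a, 0.11 for hsa-miR-23b, -0.45 for hsa-miR-27b and -0.40 for hsa-miR-24, with standard errors of 0.22, 0.28, 0.29 and 0.22. The average of the miR-23 pair covers opposite signs, at 0.29 and 0.47 for hsa-miR-23a and hsa-miR-23b at day 7 and -0.56 and -0.35 at day 14 (standard errors 0.38 and 0.48 on 1 day), and hsa-miR-27b was at 0.02 at day 7. By the table's labels the cell types of day 7 lay on different slides. With slide as a term hsa-miR-23b turned to -0.06 and hsa-miR-23a went to -0.29. hsa-miR-23a turned to 0.05 without Saos-2 replicate 1 of day 7 and to 0.02 with centred columns. hsa-miR-23b turned to -0.12 without replicate 2 of day 7. With the arrays as filed, hsa-miR-23a at 1.29 (adjusted p = 0.0478, 0.0478 to 0.993 over all alternatives) and hsa-miR-24 at 1.13 (adjusted p = 0.0234, 0.0234 to 0.834) were called as higher in Sa/CD99, where 93 of all 213 miRNAs were called, so that 2 of 5 is near the share of all. hsa-miR-27b was at 0.80 as filed.

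hsa-miR-27a had a difference of -1.90 over all days (standard error 0.81, adjusted p = 0.343), with -1.20 at day 0, -1.47 at day 7 and -3.03 at day 14 (adjusted p = 0.306); the standard error on any 1 day was 1.41. These values rest on Saos-2 replicate 2. Without replicate 2 of day 7 the difference of that day was 0.13, without that of day 0 it came to -0.29 and without that of day 14 to -1.04, each on its own day, and without replicate 1 of day 14 hsa-miR-27a was called at that day by the methods' rule, at -5.01. As filed, where cell type and slide cannot be told apart, the difference was 0.73 at day 14 and 0.90 over all days.

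**Figure D4:**
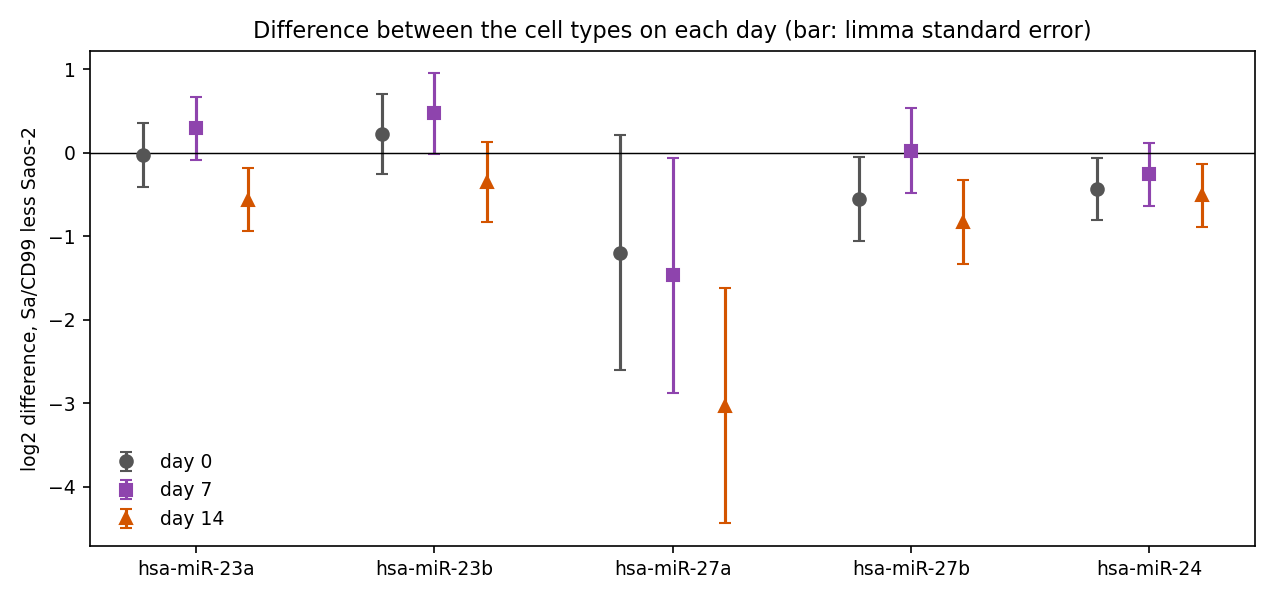
Log2 difference of Sa/CD99 less Saos-2 (y axis) for each of the 5 miRNAs (x axis) at days 0, 7 and 14, with bars for limma's standard error. The bars of hsa-miR-27a, 1.41 each way, are the widest, and 0 of the differences were called; as filed its difference is above 0 on all 3 days.

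Saos-2 replicate 2 stood apart from replicate 1 most in hsa-miR-27a. Its total gene signal for hsa-miR-27a was 7.6-fold that of replicate 1 at day 0, 14-fold at day 7 and 11-fold at day 14. These 3 ratios rest on signals near background, since 7, 1 and 6 of its 16 spots were well above it in replicate 1, against 16 in replicate 2. For hsa-miR-27b the ratio was 2.93, 4.44 and 3.35 and for hsa-miR-24 it was 1.90, 2.19 and 2.69. For hsa-miR-23a it was 1.13, 1.23 and 1.77, and for hsa-miR-23b 0.900, 1.10 and 1.48. On the log2 scale of the table, replicate 2 less replicate 1 was 1.80, 3.20 and 3.97 for hsa-miR-27a and 0.99, 0.90 and 0.93 for hsa-miR-27b, but 0.80, 0.06 and 0.50 for hsa-miR-24, -0.36, -0.87 and -0.37 for hsa-miR-23a and -0.46, -1.40 and -0.39 for hsa-miR-23b. The 3 arrays are filed as clone 36 of day 14, clone 36 of day 7 and Saos-2 replicate 1 of day 14, so that by the filed record 2 of the 3 are Sa/CD99. Of the 100 miRNAs detected on all columns, 3 were at least 1 log2 unit higher in replicate 2 on each day, hsa-miR-27a, hsa-miR-1274a and hsa-miR-1274b, the last 2 of them withdrawn entries that are fragments of transfer RNA, and hsa-miR-27a had the largest mean difference. Both probes of hsa-miR-27a showed the higher signal, but the dimmer had no spot well above background on 8 of 12 arrays.

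Run without the 3 Saos-2 replicate 2 arrays and, in turn, without the 3 replicate 1 arrays, both chosen after seeing the data, the comparison of cell types gave different counts. Without replicate 2 limma called 0 members over all days, where 22 of all 223 miRNAs were called, with hsa-miR-27a at -0.40, hsa-miR-24 at -0.18 and hsa-miR-27b at 0.02. Without replicate 1 limma called 3, hsa-miR-27a at -3.39 (adjusted p = 0.00156), hsa-miR-27b at -0.92 (adjusted p = 0.0123) and hsa-miR-24 at -0.63 (adjusted p = 0.0264), where 85 of all 250 miRNAs were called. Over all alternatives the adjusted p of the 3 ranged from 0.00156 to 0.795, 0.0123 to 0.972 and 0.0234 to 0.834. Each Saos-2 group then holds 1 array, assumed to vary like the other groups. Which replicate stands for the Saos-2 line was not tested.

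Members that share a cluster or a seed were compared on the same array. In such a difference a factor common to the whole array cancels, but quantile normalization is not such a factor and the log2 differences depend on it. hsa-miR-27b less hsa-miR-27a was 1.93 and 1.57 at day 0, 3.60 and 3.98 at day 7, and 4.16 and 5.31 at day 14 in clones 22 and 36. In Saos-2 it was 1.51 in replicate 1 and 0.70 in replicate 2 at day 0, 3.44 and 1.15 at day 7, and 4.06 and 1.02 at day 14. On this scale the clones lay above both Saos-2 arrays on each day, replicate 1 close behind them. In the ratio of signals before normalization that order did not hold: at day 0 it was 3.54 in clone 36 against 4.0 in replicate 1, and at day 14 it was 4.44 in clone 22 against 5.7. Averaged over days the difference was 1.44 larger in Sa/CD99 (two-sided exact permutation of cell types within days, p = 0.00926, the smallest that its 216 arrangements can give, adjusted p = 0.0556 over 6 pairs), and it was not called. From the scanner arrays under the table's labels it was 0.81 (exact p = 0.0648), and 0.63 and 0.62 with the 2 percentile scalings (exact p = 0.130 in both). It was 0.42 without the replicate 2 arrays and -0.10 with the arrays as filed.

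The other 5 pairs were not called either. A pair alone at the smallest p cannot pass over 6 pairs, since 0.0556 is the least it can reach, so that 0 of 6 pairs passing says nothing of a single pair. By this exact test 1 of the 6 had an unadjusted p under 0.05. hsa-miR-23b less hsa-miR-23a lay between 0.27 and 0.89 on all 12 columns, with a mean of 0.55 ± 0.22 (SD, n = 12), and differed by 0.21 between the cell types (exact p = 0.139), and as filed by -0.23. hsa-miR-27a less hsa-miR-23a, partners in 1 cluster, lay between -6.70 and -1.81, with the 3 highest values on the replicate 2 arrays, and differed by -1.80 (exact p = 0.120), by -1.04 with the percentile of the detected probes and by -0.03 without the replicate 2 arrays. Without the 3 replicate 1 arrays 5 of 6 pairs passed, each at the smallest p that 27 arrangements can give, 0.0370, and an adjusted p of 0.0444, which they reach only because 5 tie at that smallest p, where all alternatives of these 5 spanned 0.0444 to 0.852. The arrays of 1 clone at 3 days are not independent, which the permutation does not take into account.

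**Figure D5:**
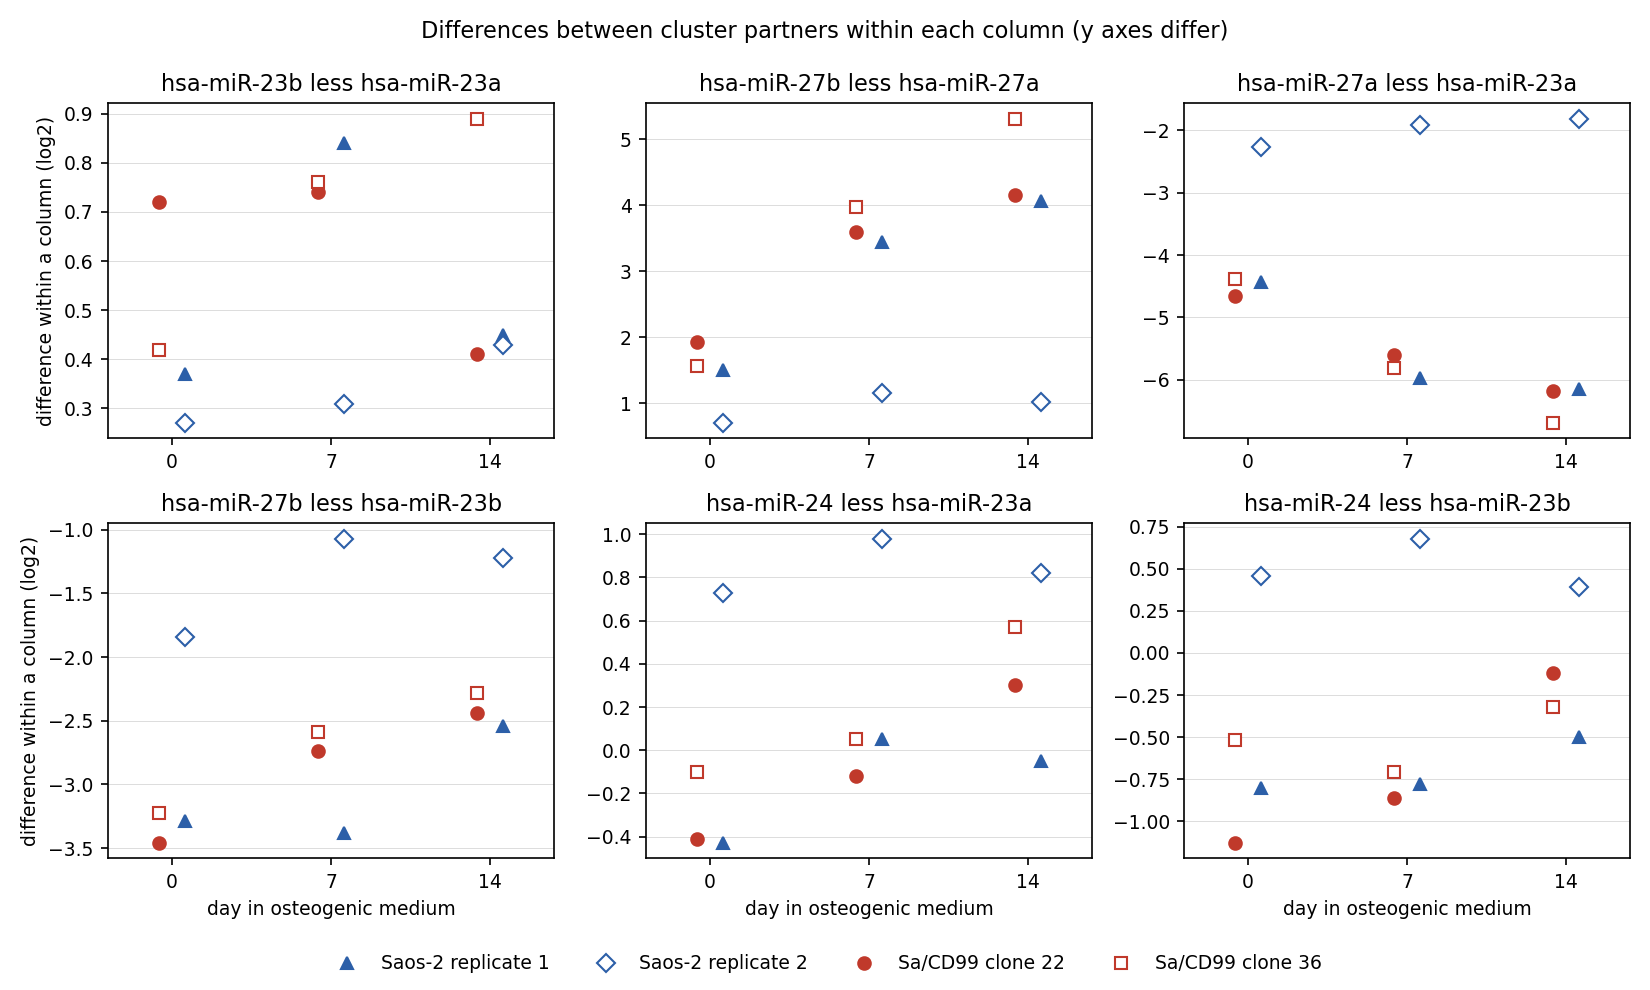
Log2 difference between 2 members on the same array (y axes, which differ between panels) by day in osteogenic medium (x axis), for 6 pairs that share a cluster or a seed. In 5 panels the Saos-2 replicate 2 arrays lie at one end on each day, and hsa-miR-23b less hsa-miR-23a stays between 0.27 and 0.89; as filed hsa-miR-27b less hsa-miR-27a is no longer larger in Sa/CD99.

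Over the 12 columns the members with a common seed had the higher correlations. The Pearson correlation of log2 values was 0.97 between hsa-miR-23a and hsa-miR-23b and 0.91 between hsa-miR-27a and hsa-miR-27b, which lie on different chromosomes. It was 0.55 between hsa-miR-23a and hsa-miR-27a and 0.42 between hsa-miR-23b and hsa-miR-27b, each of which share a cluster, and the median over all 4950 pairs of the 100 miRNAs was 0.67. The columns share the shift between days, and whether binding of both members of a pair by 1 probe adds to the first 2 values was not tested. On each day Saos-2 replicate 2 was above replicate 1 for the miR-27 pair and below it for the miR-23 pair. The part of those arrays in these correlations was not tested. hsa-miR-24 had 0.82 with hsa-miR-23a and 0.85 with hsa-miR-27a, and 0.72 with hsa-miR-23b and 0.85 with hsa-miR-27b.

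The miRNAs most like each member by this correlation, among 95 others, split the same way. They were hsa-miR-197 (0.99), hsa-miR-484 (0.98) and hsa-miR-331-3p (0.98) for hsa-miR-23a, and hsa-let-7e (0.99), hsa-let-7b (0.99) and hsa-miR-197 (0.98) for hsa-miR-23b. For hsa-miR-27a they were hsa-miR-1274a (0.98), hsa-miR-130b (0.95) and hsa-miR-17 (0.95), and for hsa-miR-27b hsa-miR-720 (0.97), hsa-miR-1274b (0.92) and hsa-miR-17 (0.91). hsa-miR-24 was most like hsa-miR-30a (0.99), hsa-miR-22 (0.94) and hsa-miR-1260 (0.93). The lists also part by Saos-2 replicate. Averaged over days, replicate 2 less replicate 1 ran from 1.02 (hsa-miR-720) to 2.11 (hsa-miR-1274a) for those like the miR-27 pair. It ran from -1.12 (hsa-miR-197) to -0.49 (hsa-miR-331-3p) for those like the miR-23 pair. The part of these arrays in the likeness was not tested.

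The other arms of the same hairpins were scarce. hsa-miR-23b* was detected on 7 of 12 columns and hsa-miR-23a* on 3 of 12, and hsa-miR-27a*, hsa-miR-27b*, hsa-miR-24-1* and hsa-miR-24-2* on 0 of 12. hsa-miR-23a* was detected in both Sa/CD99 arrays of day 14, with a signal of 4.79 and 4.88, and in Saos-2 replicate 2 of day 7, with 1.48; these are filed as Saos-2 replicate 1 of day 0, Saos-2 replicate 2 of day 7 and clone 36 of day 7. hsa-miR-23b* was detected on all 4 arrays of day 0, with a signal between 1.52 and 1.86; of these 1 is filed under day 0. It was also detected in clone 22 of day 7, with 1.92, in Saos-2 replicate 2 of day 7, with 1.38, and in clone 36 of day 14, with 1.33, all 3 filed under day 7.

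Beside the clusters, 25 other miRNAs described in osteoblast differentiation were on the array, of which 15 were detected on no column and 9 were tested. From day 0 to day 14 limma called 6 of the 9 lower in Sa/CD99, where 74.4% of all tested were called and 37.4% were called lower. In Saos-2 it called 4 lower and 0 higher, where 55.7% were called and 26.9% were called lower. Of the 100 miRNAs detected on all columns, 68 were called lower in Sa/CD99 and 45 in Saos-2. The 1 called higher in Sa/CD99 was hsa-miR-34c-5p, which was undetected at day 0 and was tested only through the groups where it is high, so it supports nothing. The median difference of the 9 was -1.18 in Sa/CD99 and -0.93 in Saos-2, that of the 5 members -2.02 and -1.44, and that of all tested -0.64 and -0.47. Of the 9, 7 were detected on all columns, and the 100 miRNAs so detected had medians of -1.57 and -1.15, below those of the list. The 3 list miRNAs on all columns with the largest average change were hsa-miR-210, hsa-miR-30c and hsa-miR-125b. hsa-miR-210, known to be induced by hypoxia, fell by 4.00 in Sa/CD99 (adjusted p = 5.48e-05) and fell by 3.34 in Saos-2 (adjusted p = 0.000186). hsa-miR-30c fell by 4.19 (adjusted p = 0.00109) and fell by 2.60 (adjusted p = 0.0150), the latter call lost without Saos-2 replicate 2 of day 0 (adjusted p = 0.0648) or replicate 1 of day 14 (adjusted p = 0.0873), and hsa-miR-125b fell by 2.94 (adjusted p = 0.00178) and fell by 2.65 (adjusted p = 0.00463). From the scanner arrays under the table's labels hsa-miR-30c was not called in Sa/CD99 at -0.82 (adjusted p = 0.0543), nor at -0.69 and -0.59 with the 2 percentile scalings, -0.18 without background correction and -0.09 with normexp. Without normalization it turned to 0.02 in Sa/CD99 and was not called. In Saos-2 it was not called at -0.60 and -0.72 with the percentile scalings, -0.17 with normexp, -2.60 with only the arrays of the groups compared (adjusted p = 0.0682), -1.97 without the 3 replicate 1 arrays (adjusted p = 0.145) and -0.25 without normalization (adjusted p = 0.882). The normexp correction also ended the calls of hsa-miR-125b in both cell types and of hsa-miR-210 in Saos-2, its density mode those of hsa-miR-30c and hsa-miR-125b in both, and the lack of normalization that of hsa-miR-125b in Saos-2, at -1.44 (adjusted p = 0.0548). With the arrays as filed all 3 differed upward in both cell types, hsa-miR-210 by 1.62 and 0.17. The adjusted p of hsa-miR-30c ranged over all alternatives from 0.000245 to 1.0 in Sa/CD99 and from 0.00511 to 0.920 in Saos-2.

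Between the cell types, hsa-miR-34c-5p, of the p53-linked miR-34 family, was the 1 of the 9 that met the methods' rule, at days 7 and 14. At day 14 hsa-miR-30c lay at the threshold, at -2.27 with a limma unadjusted p that rounds to 0.01, and was not called. The differences of hsa-miR-34c-5p were 3.21 and 3.49. With 1 array left out they ranged from 2.18 to 4.24 at day 7 and from 2.3 to 4.69 at day 14. Its calls were not kept throughout. From the scanner arrays under the table's labels hsa-miR-34c-5p was at 0.33 and 0.6, and as filed at -0.61 and -0.25, not called. It was detected on 4 of 6 Sa/CD99 columns, those of days 7 and 14, and on 1 of 6 Saos-2 columns, replicate 2 of day 7. It was thus among the tested miRNAs only through the 2 groups where it is high, and its difference rests on the value the table gives to undetected miRNAs, so neither is taken as support.

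Slide and group overlapped in part by the table's labels. By the filed labels slide and cell type overlapped fully, so every filed difference between cell types is also one between slides. By the table's labels Sa/CD99 of day 0 and Saos-2 of days 0 and 7 lay on 1 slide and the other 3 groups on the other, so that days 0 and 14 were always on different slides, as were days 0 and 7 of Sa/CD99 and the 2 cell types of day 7. In an additive fit of cell type, day and slide, limma called 3 members lower at day 14 than at day 0, where 63.9% of all tested miRNAs were called: hsa-miR-23a at -2.42, hsa-miR-23b at -2.27 and hsa-miR-24 at -1.59. Without the slide term it called 5, where 79.5% were called. The slide term left the 2 lost calls with larger differences and larger errors: hsa-miR-27a went from -3.11 (standard error 0.95) to -3.75 (standard error 1.97), and hsa-miR-27b from -0.90 (standard error 0.35) to -1.62 (standard error 0.69). From day 0 to day 7 the additive fit called 3 members without the slide term, where 58.4% of all tested miRNAs were called, and 1 with it, hsa-miR-23a, where 47.0% were; the calls of hsa-miR-23b (adjusted p = 0.0624) and hsa-miR-24 (adjusted p = 0.0530) were lost. The slide term itself called 0 of the 219 miRNAs.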

How the data were processed

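The authors' value table holds log2 total gene signal, quantile normalized over 12 columns, with undetected miRNAs at each column's minimum (-3.32 to -3.00). The deposited scanner files, from Feature Extraction 10.7.3.1 per their headers, hold 1-colour intensity, not normalized between arrays, for 15739 spots an array. From the table, 1 limma 3.58.1 fit of 6 groups in R 4.3.3 covered the 219 miRNAs detected on both columns of at least 1 group, with Benjamini-Hochberg adjustment over all of them; pairs of members were compared by an exact permutation of cell types within days in Python 3.11.15 (numpy 2.4.6, pandas 2.3.3), and figures were drawn in matplotlib 3.10.9. From the scanner files, alternatives were computed: rma background and quantile normalization with median polish, under the table's labels and as filed; 75th percentile scaling; total gene signal with and without quantile normalization; normexp with offset 50; and no background correction. limma's saddle-point estimate for normexp failed on 2 of 12 arrays, so the signal mean was taken from the array mean, chosen after an estimate from the density mode had brought the differences near 0; that version is also given. The scripts were tested on simulated data. With 2 arrays a group, those of Sa/CD99 are different clones, so their spread includes that between clones. For Saos-2, whether separate cultures were used is not stated, so its spread may be technical. The p-values rest on a spread shared by both.

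Replicates were paired over days where a number names the same clone (22 and 36) or, for Saos-2, where every pair of days correlated above 0.1 in the difference between replicates. The correlations were 0.182, 0.180 and 0.203 in Saos-2, and 0.0338, 0.184 and 0.0718 in Sa/CD99, for days 0 and 7, 0 and 14, and 7 and 14; both were fitted with a block.

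The miRNAs named are the 5 members, the 6 other arms of their hairpins, the 3 miRNAs most correlated with each member, and, of 25 miRNAs described in osteoblast differentiation, those called between cell types and the 3 on all columns with the largest change from day 0 to day 14 averaged over cell types. hsa-miR-923, hsa-miR-1274a and hsa-miR-1274b, where named for array totals or replicates, were chosen after their values were seen. The members and lists were chosen with earlier results of these data known.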

Additional observations from a re-analysis of the deposited data

How the results depend on the processing

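Each group has 2 arrays, and several counts turn on single arrays. Leaving out the Saos-2 replicate 1 arrays moved 7 of the 11 counts of members called and the count of pairs, the filed record 4 of the 11, and any other setting at most 3, and the unnormalized signal of hsa-miR-27a is low on 9 of 12 arrays. Counts, that of pairs included, stayed within 1.5 times in 148 of 186 cases over the settings and in 128 of 144 with 1 array left out. Differences kept direction and side of the threshold in 345 of 489 and 368 of 408, and reversed in 47 and 3. Of the 50 member differences, 41 changed sign as filed, 17 without normalization and 0 to 9 under any other setting, and 16 of 600 did so with 1 array left out. The cause of these changes was not tested, also where a setting uses fewer arrays or miRNAs.

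As filed, the members called were 0 in Saos-2 and 0 in Sa/CD99 from day 0 to 14 and 0 in Saos-2 from day 0 to 7, with 0 of all 213 miRNAs called in each, and 2 between cell types over all days, with 93 of 213. The cell types as filed lay on different slides, so cell type and slide cannot be told apart there. From day 0 to 14 hsa-miR-23a was at 0.32, hsa-miR-27a at 1.63, hsa-miR-27b at 1.07, hsa-miR-24 at 0.69, hsa-miR-210 at 1.62, hsa-miR-30c at 0.76 and hsa-miR-125b at 1.06 in Sa/CD99; in Saos-2 hsa-miR-23a was at 0.62, hsa-miR-23b at 0.56, hsa-miR-27a at 1.35, hsa-miR-27b at 1.31, hsa-miR-24 at 0.69, hsa-miR-210 at 0.17, hsa-miR-30c at 0.62 and hsa-miR-125b at 0.65. hsa-miR-23a was at 0.40 in Saos-2 from day 0 to 7 and at 0.79 in Sa/CD99 from day 7 to 14. Between cell types hsa-miR-27a was at 0.45, 1.52 and 0.73 at days 0, 7 and 14, hsa-miR-34c-5p at -0.61 and -0.25 at days 7 and 14, and over all days hsa-miR-23a was at 1.29, hsa-miR-27a at 0.90, hsa-miR-27b at 0.80 and hsa-miR-24 at 1.13. The pair difference was -0.10 for hsa-miR-27b less hsa-miR-27a, -0.23 for hsa-miR-23b less hsa-miR-23a and 0.07 for hsa-miR-24 less hsa-miR-23b.

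Shares of all tested miRNAs called stand in brackets. Relabelled to the table, the scanner arrays gave 3 members in Saos-2 (47.0%) and 1 in Sa/CD99 (40.6%) from day 0 to 7, and 2 in Sa/CD99 from day 7 to 14 (21.5%). Without background correction there were 3 in Saos-2 (46.1%) and 2 in Sa/CD99 (39.7%) from day 0 to 7. With the 75th percentile of all probes there were 1 in Saos-2 (48.9%) and 2 in Sa/CD99 (52.5%) from day 0 to 14 and 1 in Sa/CD99 from day 7 to 14 (26.5%), with hsa-miR-27b at 0.03 in Sa/CD99 from day 0 to 14. Normexp gave 0 in Saos-2 from day 0 to 7 (0.913%), and 0 in Saos-2 (0.913%) and 0 in Sa/CD99 (18.3%) from day 0 to 14, with hsa-miR-23a at 0.11 in Sa/CD99 from day 7 to 14 and hsa-miR-23b at -0.16 over all days; with its density mode 3 were called in Sa/CD99 (59.8%) and 2 in Saos-2 (36.1%) from day 0 to 14, and in Saos-2 from day 0 to 7 hsa-miR-24 in place of hsa-miR-23a. Without normalization 0 were called in Saos-2 from day 0 to 7 (25.6%) and 0 in Sa/CD99 (46.6%) and Saos-2 (36.5%) from day 0 to 14, with hsa-miR-27a at 0.21, hsa-miR-27b at 0.57, hsa-miR-24 at 0.02 and hsa-miR-30c at 0.02 in Sa/CD99, and hsa-miR-27a at 0.03 and hsa-miR-27b at 0.39 in Saos-2. With centred columns 0 were called in Saos-2 from day 0 to 7 (31.5%) and 0 in Sa/CD99 (53.9%) and Saos-2 (44.3%) from day 0 to 14, with hsa-miR-27b at 0.08 in Sa/CD99 and hsa-miR-23a at 0.02 over all days. The 75th percentile of the detected probes gave 3 in Sa/CD99 (56.6%) and 2 in Saos-2 (47.0%) from day 0 to 14, and quantile normalized total gene signal 3 in Sa/CD99 (72.6%). hsa-miR-27a was the call lost in Sa/CD99 in both. In Saos-2 hsa-miR-23b lost its call with that percentile only, and total gene signal gave 3 (54.3%).

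With no filter 2 were called in Saos-2 (82.3%) and 2 in Sa/CD99 (80.8%) from day 0 to 7, below the share of all. With only the groups compared, so fewer arrays, there were 0 in Saos-2 (26.0%) and 2 in Sa/CD99 (39.3%) from day 0 to 7 and 3 in Sa/CD99 from day 7 to 14 (30.6%); from day 0 to 14 hsa-miR-24 lost its call in Saos-2 and hsa-miR-27b gained one in Sa/CD99, 5 of 5 (83.1%). The replicate block gave 1 in Sa/CD99 from day 7 to 14 (23.7%) and changed no other call. With slide as a term in the additive fit, the count between cell types over all days stayed 0, with hsa-miR-23a at -0.29 and hsa-miR-23b at -0.06. Over both cell types together, that term took the count from 3 (58.4%) to 1 (47.0%) from day 0 to 7. From day 0 to 14 it took the count from 5 (79.5%) to 3 (63.9%).

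Without the 3 Saos-2 replicate 2 arrays 2 were called in Saos-2 (30.9%) and 4 in Sa/CD99 (47.5%) from day 0 to 7 and 4 in Sa/CD99 from day 7 to 14 (42.2%); from day 0 to 14 hsa-miR-27a was also called in Saos-2 at -3.28, 4 members in all (59.2%), and hsa-miR-27b in Sa/CD99, 5 of 5 (82.1%); over all days hsa-miR-23b was at -0.26 and hsa-miR-27b at 0.02, and hsa-miR-27a at day 7 at 0.13; hsa-miR-27b less hsa-miR-23b was 0.28, and hsa-miR-24 less hsa-miR-23a and hsa-miR-23b were 0.19 and 0.09. Without the 3 replicate 1 arrays 1, 2 and 2 were called between cell types at days 0, 7 and 14 (14.8, 25.2 and 29.6%) and 3 over all days (34.0%), 3 in Saos-2 (58.0%) and 4 in Sa/CD99 (40.4%) from day 0 to 7, 5 in Sa/CD99 from day 7 to 14 (37.2%), 5 of 5 in Sa/CD99 from day 0 to 14 (82.8%), and 5 of 6 pairs, with hsa-miR-23a at 0.17 over all days.

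With 1 array left out, the lone array of a group being assumed to vary like the others, counts were 0 to 1 between cell types at day 14, 0 to 2 in Saos-2 and 0 to 1 in Sa/CD99 from day 0 to 7, 0 to 2 in Sa/CD99 from day 7 to 14, and 1 to 3 in Saos-2 and 2 to 4 in Sa/CD99 from day 0 to 14. hsa-miR-27a at day 7 ranged from -3.07 to 0.13, and over all days hsa-miR-23a from -0.24 to 0.05 and hsa-miR-23b from -0.12 to 0.35. Over all settings the limma adjusted p from day 0 to 14 in Sa/CD99 ranged from 0.000134 to 0.937 for hsa-miR-23a, 0.000604 to 0.991 for hsa-miR-23b and 0.0111 to 0.996 for hsa-miR-27b, and for hsa-miR-27b in Saos-2 from 0.0814 to 0.982.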
